A study of Mus musculus with 12 samples.

Results

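The T-cell receptor beta (Trb) and gamma (Trg) segments were followed in cells of a mouse T-ALL (acute lymphoblastic leukemia of T-lineage). Members were taken by name: every row of the count table whose Entrez identifier maps to a Trb variable (V), diversity (D), joining (J) or constant (C) segment, or to a Trg V, J or C segment. This gave 56 of 27179 genes, namely 41 Trb segments (24 V, 2 D, 13 J and 2 C) and 15 Trg segments (7 V, 4 J and 4 C). A further 12 segments with matching RefSeq names, all annotated as pseudogenes, were not analysed here. All libraries came from ALL101, a single primary leukemia of genotype Vav-tTA;TRE-GFP-shIkaros. In this genotype the Vav promoter, active in blood cells, drives a tetracycline-controlled transactivator, which switches on a hairpin RNA, linked to GFP, that knocks down the lymphocyte transcription factor Ikaros (gene Ikzf1). Recipient mice with the leukemia stayed untreated (3 mice, cells labelled GFPhigh) or received doxycycline for 3 days (3 mice, cells labelled GFPmid), and per the labels the drug turns the hairpin off so that endogenous Ikaros returns. The comparison asks what changes in the segments when Ikaros is restored in established leukemia cells. The cells came from spleen by flow sorting. Both sequencing runs of a mouse were summed, so that n counts mice.

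Developing T cells assemble the beta chain gene by joining a V, a D and a J segment upstream of a C segment. In most joins they delete the DNA between the joined parts. The Trb locus holds a pair of D-J-C clusters behind a long array of V segments, with Trbv31 alone beyond the last C segment. The gamma chain genes lie in 4 small cassettes of V, J and C segments, and join V directly to J. Beta rearrangement is selected through the pre-T-cell receptor, while transcription and rearrangement of the gamma genes depend on interleukin-7 receptor signals through STAT5. Since all mice carried the same leukemia, the segments in use mark the leukemia as well as any other T cell in the sort.

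Total counts were 29904744 to 44949303 per mouse, at which 3 counts, the limit that a count of 0 allows, equal 0.0666 to 0.101 CPM (counts scaled to a common library size). Ikzf1, the hairpin target, stood at 153, 149.7 and 158.6 CPM in the untreated mice and at 1438, 1523 and 1495 CPM in the doxycycline mice, in the direction of the labels. Its log2 difference was 3.27 ± 0.07 (SE, edgeR adjusted p = 1.2e-07). Of 13134 genes tested across the genome, 24.8% were called higher after doxycycline and 25.2% lower at an adjusted p under 0.05. The median log2 difference over all tested genes was -0.0037, and between -0.0010 and -0.0039 under the other scalings. The treatment and the GFP gate cannot be told apart, and no leukemia without the hairpin was analysed here. In bulk RNA, fewer cells of a type and less RNA per cell cannot be told apart.

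Within the D and J segments, counts began at Trbj1-3, so the first J cluster is printed in full with its neighbours. The sequences are germline sequences of GRCm38 from GENCODE M21, which held all 56 members. The segments printed here all lie on the plus strand of chromosome 6. Capitals mark the letters TTNGGNNNNGG, which spell the conserved phenylalanine and glycines of a J segment. They were searched on the coding strand, where 1.22% of 141672 GENCODE transcripts hold them in the first 50 bases (2.12% on both strands).
Trbd1, chr6:41533201-41533212: gggacagggggc
Trbj1-1, chr6:41533864-41533911: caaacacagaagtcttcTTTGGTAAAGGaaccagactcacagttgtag
Trbj1-2, chr6:41534001-41534048: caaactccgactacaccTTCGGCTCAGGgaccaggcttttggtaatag
Trbj1-3, chr6:41534323-41534372: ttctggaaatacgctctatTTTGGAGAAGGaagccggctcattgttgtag
Trbj1-4, chr6:41534811-41534861: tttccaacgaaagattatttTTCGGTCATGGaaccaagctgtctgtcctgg
Trbj1-5, chr6:41535084-41535133: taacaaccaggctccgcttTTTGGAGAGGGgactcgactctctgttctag
Trbj1-6, chr6:41535554-41535606: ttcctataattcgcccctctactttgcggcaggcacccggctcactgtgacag
Trbj1-7, chr6:41535642-41535687: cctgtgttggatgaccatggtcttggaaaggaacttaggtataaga
Trbd2, chr6:41542163-41542176: gggactgggggggc
Trbj2-1, chr6:41542754-41542803: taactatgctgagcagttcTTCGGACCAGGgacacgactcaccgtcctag
Trbd1, Trbj1-1 and Trbj1-2 had 0 counts in all 6 mice, while Trbj1-3 and every later segment printed here had counts in all 6. Trbj1-6 and Trbj1-7 do not hold the searched letters.

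Counts of the Trb locus fell into a few stretches. Trbv12-1, a V segment at chr6:41113567-41114067 (RefSeq, GRCm38), carried most V counts, and after it came a stretch of 420.3 kb up to Trbj1-3 that was almost empty. This stretch holds 19 members, namely 16 V segments, Trbd1, Trbj1-1 and Trbj1-2. Of these, 17 had 0 counts in all 6 mice, and the remaining pair, Trbv12-2 and Trbv13-2, had 3 counts together. All 14 members from Trbj1-3 to Trbc2 had counts in all 6 mice. Of the 6 members before Trbv12-1, Trbv4 and Trbv5 were well counted, Trbv1 was at 0 in every mouse, and Trbv2, Trbv3 and Trbv11 had at most 16 counts in any mouse.

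**Figure D1:**
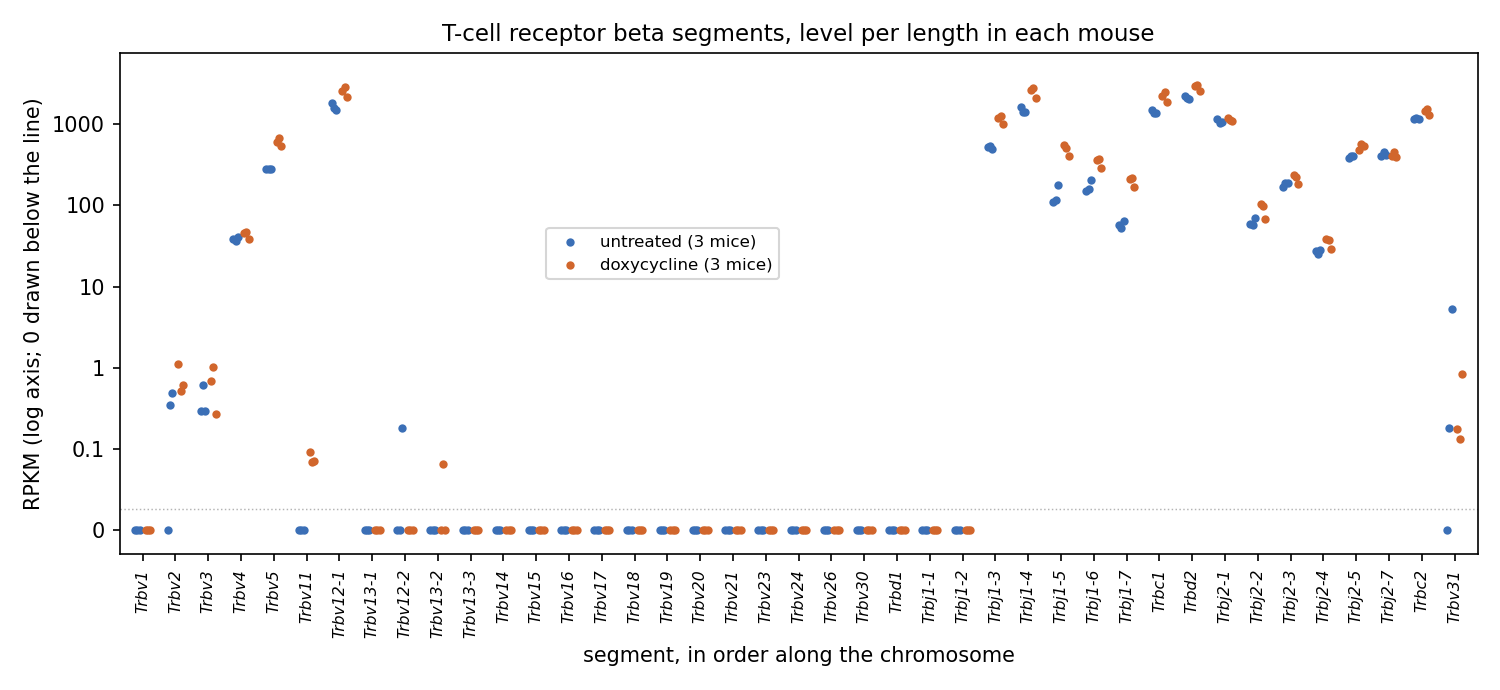
Level per length (RPKM, log axis, with 0 drawn below the dotted line) of the 41 Trb segments in the order of the chromosome, with a point for each of 3 untreated and 3 doxycycline mice. Trbv12-1 is high in all mice, and the segments from Trbj1-3 to Trbc2 have counts in all mice at unlike levels. The 19 segments between Trbv12-1 and Trbj1-3 hold 3 counts in all.

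Trbv12-2, a near copy of Trbv12-1, shows how unlike the counts of related segments were. Both are printed over their last 150 coding bases (GENCODE M21, GRCm38, plus strand), with capitals at the bases where they differ.
Trbv12-1, chr6:41113918-41114067: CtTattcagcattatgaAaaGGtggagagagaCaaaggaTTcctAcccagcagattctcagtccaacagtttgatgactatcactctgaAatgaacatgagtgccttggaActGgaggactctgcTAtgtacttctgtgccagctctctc
Trbv12-2, chr6:41119215-41119364: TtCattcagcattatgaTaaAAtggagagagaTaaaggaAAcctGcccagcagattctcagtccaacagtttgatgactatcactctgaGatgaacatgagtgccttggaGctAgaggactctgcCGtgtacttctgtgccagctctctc
Over all 372 coding bases the copies had 88.2% identity, with 44 differences, and no stretch of 50 bases was common to both. Trbv12-2 had 2 counts, both in untreated mouse 3, against 172160 counts of Trbv12-1 over all mice.

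Trbv12-1 rose after doxycycline. It had 677, 591 and 563 CPM in the untreated mice and 950.1, 1069 and 804 CPM in the doxycycline mice, with no overlap between groups. The log2 difference was 0.63 ± 0.11 (SE, edgeR adjusted p = 0.00272), 1.54-fold. Trbv5, a V segment 50.8 kb upstream, had 96.4, 97.2 and 96.5 CPM in the untreated mice and 204.5, 232.6 and 184.3 CPM in the doxycycline mice. The untreated mice were almost alike and all lay below the doxycycline mice. Trbv5 rose 2.14-fold, by 1.10 ± 0.09 (SE, edgeR adjusted p = 8.2e-05). Trbv4, its immediate neighbour, had 13.3, 12.5 and 14.1 CPM against 15.9, 16.4 and 13.1 CPM, and the groups overlapped. Its log2 difference was 0.18 ± 0.12 (SE, edgeR adjusted p = 0.222). In level per length Trbv12-1 stood at 1640 ± 159 RPKM (SD, n = 3) in the untreated mice, above Trbv5 with 284 ± 1.31 RPKM and Trbv4 with 38.7 ± 2.33 RPKM. These 3 were the only V segments tested, and of the other 21, 15 were at 0 in all mice and 6 had between 1 and 71 counts over all mice.

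Among the V segments with few counts, Trbv31, the V segment beyond Trbc2, was singled out after its values were seen. It had 0, 2 and 53 counts in the untreated mice and 2, 2 and 12 in the doxycycline mice. Untreated mouse 3 thus held 53 of 71 counts. The library name of this mouse carries INJ where those of the other mice carry sort wording, and what the difference means for the counts was not tested.

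The D and J segments did not all move alike. D segments are only 12 and 14 bases long and J segments 46 to 53. A read longer than its segment may count in full, be shared or be lost, and the rule is not given in the sources used here. The level per length of D and J segments therefore cannot be set against that of V and C segments. Trbd2, the second D segment, had 30.9, 29.5 and 28.7 CPM in the untreated mice and 41.2, 42.4 and 36.5 CPM in the doxycycline mice, a rise of 0.43 ± 0.08 (SE, edgeR adjusted p = 0.00353). Trbj1-4, the J segment with the most counts, had 82.3, 73.2 and 72.3 CPM in the untreated mice and 136.9, 142.4 and 107.9 CPM in the doxycycline mice. It rose 1.70-fold, by 0.77 ± 0.11 (SE, edgeR adjusted p = 0.00092), and its groups did not overlap. Its neighbour Trbj1-3, the first counted J segment, had 26.5, 27.1 and 24.9 CPM against 59.9, 63.2 and 50.5 CPM, and rose by 1.14 ± 0.10 (SE, edgeR adjusted p = 1e-04).

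The later segments of the first cluster had lower levels and, for Trbj1-5 and Trbj1-7, the largest log2 differences among the Trb segments tested. Trbj1-5 had 5.47, 5.84 and 8.91 CPM in the untreated mice and 27.7, 25.3 and 20.2 CPM in the doxycycline mice. Every doxycycline mouse was more than 2-fold above every untreated mouse, and the log2 difference was 1.86 ± 0.21 (SE, edgeR adjusted p = 0.00038). Trbj1-7 rose from 2.66 ± 0.259 to 9.13 ± 1.27 CPM (SD, n = 3 each), by 1.78 ± 0.17 (SE, edgeR adjusted p = 0.00015). Trbj1-6 rose from 9.11 ± 1.61 to 18.2 ± 2.34 CPM, by 1.00 ± 0.15 (SE, edgeR adjusted p = 0.00117). All 5 counted J segments of the first cluster were therefore called higher, where 24.8% of all genes tested were.

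In the second J cluster, which lies between Trbc1 and Trbc2, 1 of 6 counted segments was called higher, beside 24.8% of all genes tested. Trbj2-1, the most counted of them, had 58.9, 52.5 and 53.6 CPM in the untreated mice and 60.1, 56.7 and 54.8 CPM in the doxycycline mice. The groups overlapped, and the log2 difference was 0.06 ± 0.08 (SE, edgeR adjusted p = 0.557). Trbj2-5 rose from 19.7 ± 0.761 to 25.98 ± 2.13 CPM, by 0.40 ± 0.09 (SE, edgeR adjusted p = 0.0076). Trbj2-7 was at 20.1 ± 1.29 and 19.9 ± 1.61 CPM, a log2 difference of -0.02 ± 0.10 (edgeR adjusted p = 0.908). Trbj2-2, Trbj2-3 and Trbj2-4 had log2 differences of 0.55 ± 0.21, 0.25 ± 0.13 and 0.37 ± 0.23 (SE, edgeR adjusted p = 0.0573, 0.151 and 0.215). Trbj2-2 passed without doxycycline mouse 3 (edgeR adjusted p = 0.0193). The share of J counts in the first cluster was 53.3%, 52.1% and 52.8% in the untreated mice and 67.5%, 67.7% and 64.0% in the doxycycline mice. The groups did not overlap in this share, which was chosen after the values were seen and not tested. Trbj2-1 took 24.03% ± 0.966 of the J counts in the untreated mice and 16.03% ± 1.32 in the doxycycline mice (SD, n = 3 each), a share chosen in the same way.

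Both constant segments rose, with the larger log2 difference in Trbc1. Trbc1, at chr6:41538219-41539665, had 772, 721 and 711 CPM in the untreated mice and 1173, 1297 and 969.8 CPM in the doxycycline mice. The log2 difference was 0.64 ± 0.10 (SE, edgeR adjusted p = 0.0015). Trbc2, at chr6:41546730-41548181, had 603, 614 and 606 CPM against 766, 806 and 686 CPM. Its groups did not overlap either, and it rose by 0.31 ± 0.07 (SE, edgeR adjusted p = 0.00872). Per length Trbc1 exceeded Trbc2 by 1.28, 1.18 and 1.18 times in the untreated mice and by 1.53, 1.61 and 1.42 times in the doxycycline mice. Trbv12-1 exceeded Trbc1 per length by 1.10 to 1.22 times in the untreated mice and by 1.13 to 1.16 times in the doxycycline mice, and the groups overlapped in this ratio.

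How well the counts can tell the constant segments apart depends on their sequences, so the longest of their later coding exons is printed (GENCODE M21, GRCm38, plus strand), with capitals where they differ.
Trbc1, chr6:41539229-41539335: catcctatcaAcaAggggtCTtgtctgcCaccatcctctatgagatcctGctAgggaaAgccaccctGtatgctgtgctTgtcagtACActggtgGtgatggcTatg
Trbc2, chr6:41547772-41547878: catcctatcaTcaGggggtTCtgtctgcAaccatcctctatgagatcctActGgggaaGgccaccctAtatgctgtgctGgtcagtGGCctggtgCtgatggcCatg
This exon of 107 bases holds 15 of the 23 differences over 518 coding bases, and the first 120 coding bases are the same in both. Of all stretches of 50 coding bases, 60.3% occur in both segments, and of stretches of 100 bases, 43.7%. How reads that match both were counted is not given in the sources used here.

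The share of Trbc1 in the constant-segment counts was 56.2%, 54.0% and 54.0% in the untreated mice and 60.5%, 61.7% and 58.6% in the doxycycline mice. The 95% Wilson interval of each mouse's share was at most 0.982 percentage points wide, those of the Trbv12-1 and first J cluster shares at most 1.03 and 2.37 points, and these intervals cover counting error only. The mean went from 54.7% ± 1.25 to 60.2% ± 1.57 (SD, n = 3 each), and the groups did not overlap. The difference of 5.53 percentage points had an exact two-sided permutation p = 0.1, which is the smallest that 3 against 3 mice can give (Benjamini-Hochberg adjusted over 7 shares, 0.175). Trbv12-1 made up 86.0%, 84.3% and 83.3% of V counts in the untreated mice and 81.1%, 81.1% and 80.2% in the doxycycline mice, also with an exact permutation p = 0.1 (adjusted 0.175). Trbv5 took 13.5% ± 1.07 of V counts in the untreated mice and 17.8% ± 0.499 in the doxycycline mice, a share chosen after its values were seen and not tested.

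**Figure D2:**
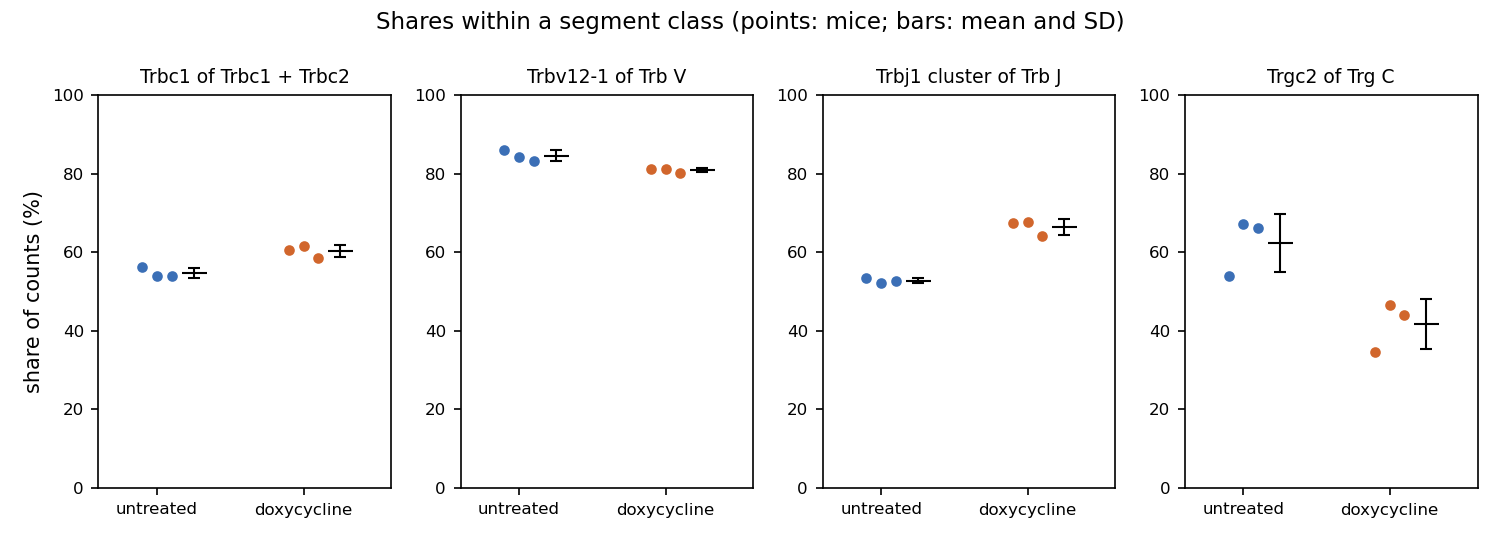
Share of counts (%) of Trbc1 among Trb C, of Trbv12-1 among Trb V, of the first J cluster among Trb J and of Trgc2 among Trg C, with a point for each mouse and bars for the mean and SD of 3 mice. The groups do not overlap in any of these 4 shares, and the Trgc2 shares of the doxycycline mice rest on 15 to 157 counts.

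The Trg locus was far less counted than the Trb locus and moved the opposite way. Its 15 segments together had 1778, 1434 and 614 counts in the untreated mice and 134, 23 and 263 in the doxycycline mice. Most of these counts came from a pair of cassettes, Trgv2 with Trgj2 and Trgc2, and Trgv7 with Trgj1 and Trgc1. The Trgv2 cassette held 62.5% ± 8.28 of the Trg counts in the untreated mice and 41.7% ± 4.07 in the doxycycline mice (SD, n = 3 each), and the Trgv7 cassette 28.8% ± 7.13 and 40.6% ± 13.8. The Trgv1 cassette, with Trgj4 and Trgc4, held 8.21% ± 1.84 and 17.7% ± 12.03. The Trgv3 cassette had 9, 7 and 3 counts in the untreated mice and 0 in each doxycycline mouse. Trgv4, Trgv5, Trgv6 and Trgj3 had 0 counts in all mice.

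**Figure D3:**
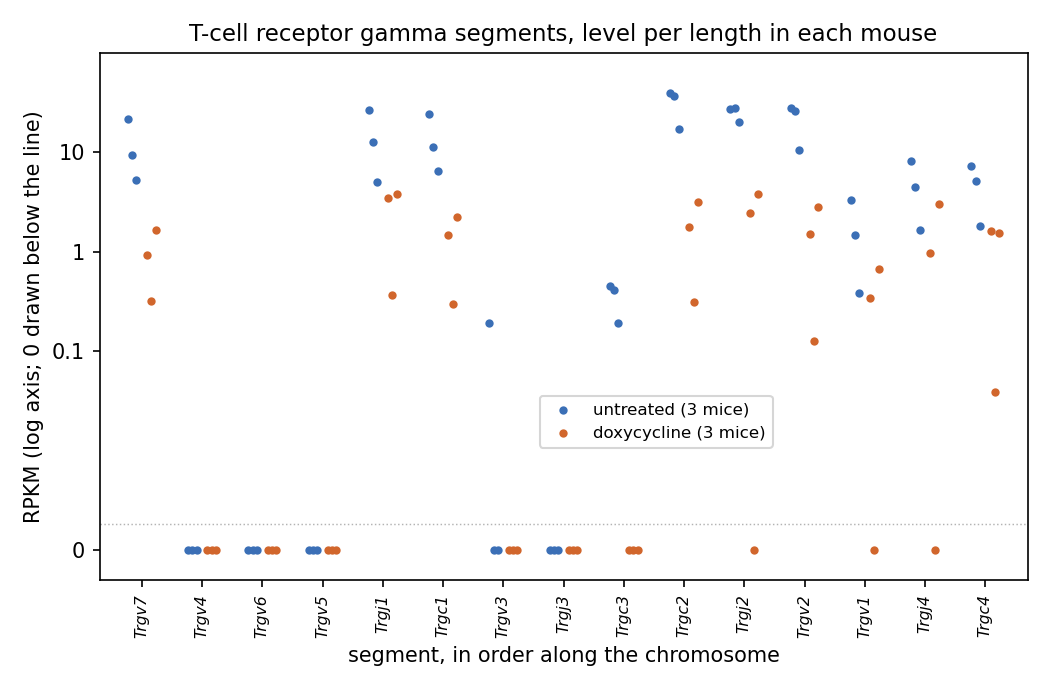
Level per length (RPKM, log axis, with 0 drawn below the dotted line) of the 15 Trg segments in the order of the chromosome, with a point for each of 3 untreated and 3 doxycycline mice. The doxycycline points of the 7 tested segments lie below all untreated points, and doxycycline mouse 2 is the lowest mouse in each of them.

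Some parts of the cassettes resemble each other closely, and others do not. Their J segments and the start of the constant segments are printed from GENCODE M21 (GRCm38, chromosome 13), with the first cassette on the plus strand and the Trgv2 cassette on the minus strand. Capitals mark the bases at which Trgc1 and Trgc2 differ, and the J segments carry none.
Trgj1, chr13:19210343-19210402, plus strand: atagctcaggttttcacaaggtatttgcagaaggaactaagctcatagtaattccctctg
Trgj2, chr13:19311245-19311304, minus strand: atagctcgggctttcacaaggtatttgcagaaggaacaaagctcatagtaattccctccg
Trgc1, chr13:19214103-19214252, plus strand: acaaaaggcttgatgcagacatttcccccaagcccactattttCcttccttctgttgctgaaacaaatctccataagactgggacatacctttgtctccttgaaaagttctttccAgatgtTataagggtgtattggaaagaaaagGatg
Trgc2, chr13:19307402-19307551, minus strand: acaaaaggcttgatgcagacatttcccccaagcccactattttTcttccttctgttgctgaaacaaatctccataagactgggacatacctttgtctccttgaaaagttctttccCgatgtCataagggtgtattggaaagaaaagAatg
Trgc1 and Trgc2 had 97.4% identity over 500 aligned coding bases, with 13 differences. Of the stretches of 50 bases in Trgc1, 13.5% occur in Trgc2, and none of 100 bases does. Trgc1 and Trgc3 had 96.8% identity, while Trgc4 was more distant, with 78.7% identity to Trgc1. Trgv2 and Trgv1 had 95.7% identity, while Trgv7 and Trgv2 had 64.9% and no stretch of 50 bases in common.

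Of the gamma V segments, Trgv2 had 9.82, 9.06 and 3.69 CPM in the untreated mice and 0.529, 0.0444 and 0.989 CPM in the doxycycline mice. The groups did not overlap, and Trgv2 fell by 3.85 ± 0.83 on the log2 scale (SE, edgeR adjusted p = 0.0115). The difference was -4.80 without doxycycline mouse 3 and -3.27 without doxycycline mouse 2. Trgv7 had 7.61, 3.31 and 1.83 CPM against 0.323, 0.111 and 0.575 CPM, and fell by 3.65 ± 0.72 (SE, edgeR adjusted p = 0.00653). Leaving out untreated mouse 1 gave -2.93, and leaving out doxycycline mouse 3 gave -4.32. Trgv1, not tested, had 34, 17 and 4 counts in the untreated mice and 4, 0 and 10 in the doxycycline mice, with overlap.

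Among the gamma constant segments, Trgc2 was the most counted. It had 20.1, 18.6 and 8.71 CPM in the untreated mice and 0.882, 0.155 and 1.59 CPM in the doxycycline mice, and fell by 4.17 ± 0.75 (SE, edgeR adjusted p = 0.00694). Trgc1 had 12.7, 5.87 and 3.33 CPM against 0.764, 0.155 and 1.15 CPM, and fell by 3.41 ± 0.78 (SE, edgeR adjusted p = 0.014). Without doxycycline mouse 3 the differences were -4.996 for Trgc2 and -4.04 for Trgc1, and without untreated mouse 1 that of Trgc1 was -2.75. In both segments untreated mouse 3 was the lowest of its group and doxycycline mouse 3 the highest of the other. Trgc4 had 4.19, 2.95 and 1.03 CPM against 0.911, 0.0222 and 0.874 CPM, without overlap. Its log2 difference of -2.20 ± 0.95 missed the threshold (SE, edgeR adjusted p = 0.103), while it passed with DESeq2 (adjusted p = 0.018). Without doxycycline mouse 2 it was -1.59. Trgc3 had 7, 7 and 3 counts in the untreated mice and 0 in each doxycycline mouse. It had too few counts for the main test and was called lower with no filter on low counts (edgeR adjusted p = 0.00339).

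The gamma J segments had few counts. Trgj2 had 49, 56 and 36 counts in the untreated mice and 5, 0 and 10 in the doxycycline mice, and fell by 3.58 ± 0.64 on the log2 scale (SE, edgeR adjusted p = 0.00277). The difference was -4.45 without doxycycline mouse 3 and -2.94 without doxycycline mouse 2. Trgj1, below 1 CPM on average in both groups, had 48, 25 and 9 counts against 7, 1 and 10, with a log2 difference of -2.55 ± 0.79 (SE, edgeR adjusted p = 0.0295). Its raw counts overlapped between groups, and only its CPM did not. The Trgj1 call was lost when untreated mouse 1 (edgeR adjusted p = 0.0929), untreated 2 (0.0645), doxycycline 1 (0.0661) or doxycycline 2 (0.0536) was left out.

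Use of the gamma constant segments was read from few counts in the doxycycline mice. Trgc2 took 54.0%, 67.2% and 66.2% of the constant-segment counts in the untreated mice and 34.5%, 46.7% and 43.9% in the doxycycline mice. The denominators were 1110, 916 and 396 counts in the untreated mice and 87, 15 and 157 in the doxycycline mice. The 95% Wilson interval ran from 24.8% to 69.9% in doxycycline mouse 2 and from 36.4% to 51.8% in doxycycline mouse 3. The groups did not overlap, with a difference of -20.8 percentage points and an exact two-sided permutation p = 0.1 (adjusted over 7 shares, 0.175). The shares of Trgc1 (26.9% ± 6.58 and 36.1% ± 9.18), Trgc4 (9.93% ± 1.84 and 22.2% ± 14.6) and, among V segments, Trgv2 (62.8% ± 9.08 and 46.1% ± 15.2) overlapped between groups. Their exact permutation p-values were 0.3, 0.4 and 0.3 (adjusted 0.35, 0.4 and 0.35). Trgc3 went from 0.718% ± 0.0753 to 0% with an exact permutation p = 0.1 (adjusted 0.175), on 3 to 7 counts per untreated mouse. The Wilson intervals of the 0 shares reached 4.23%, 20.4% and 2.39% in the doxycycline mice.

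Counted over all members, the loci separated by direction. Of the 56 members, 24 had enough counts to be tested, 22 were at 0 in all mice and 10 had between 1 and 71 counts over all mice. Of 17 Trb segments tested, 11 were called higher, 0 lower and 6 neither, and of 7 Trg segments tested, 0 were called higher, 6 lower and 1 neither (edgeR, adjusted p under 0.05). Across all genes 24.8% were called higher and 25.2% lower. In CPM the groups did not overlap in 12 Trb segments, all higher, and in 7 Trg segments, all lower. Of all genes tested, 30.2% lay higher without overlap and 30.9% lower. Some of these gaps were narrow. Trbj2-4 had at most 1.397 CPM in an untreated mouse and at least 1.403 CPM in a doxycycline mouse. Trgj1 had at least 0.299 CPM in an untreated mouse and at most 0.23 CPM in a doxycycline mouse. The median log2 difference was 0.55 over the tested Trb segments and -3.58 over the tested Trg segments, beside -0.0037 over all genes. Segments of a locus can lie on the same transcripts, so their calls may not be independent of each other.

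**Figure D4:**
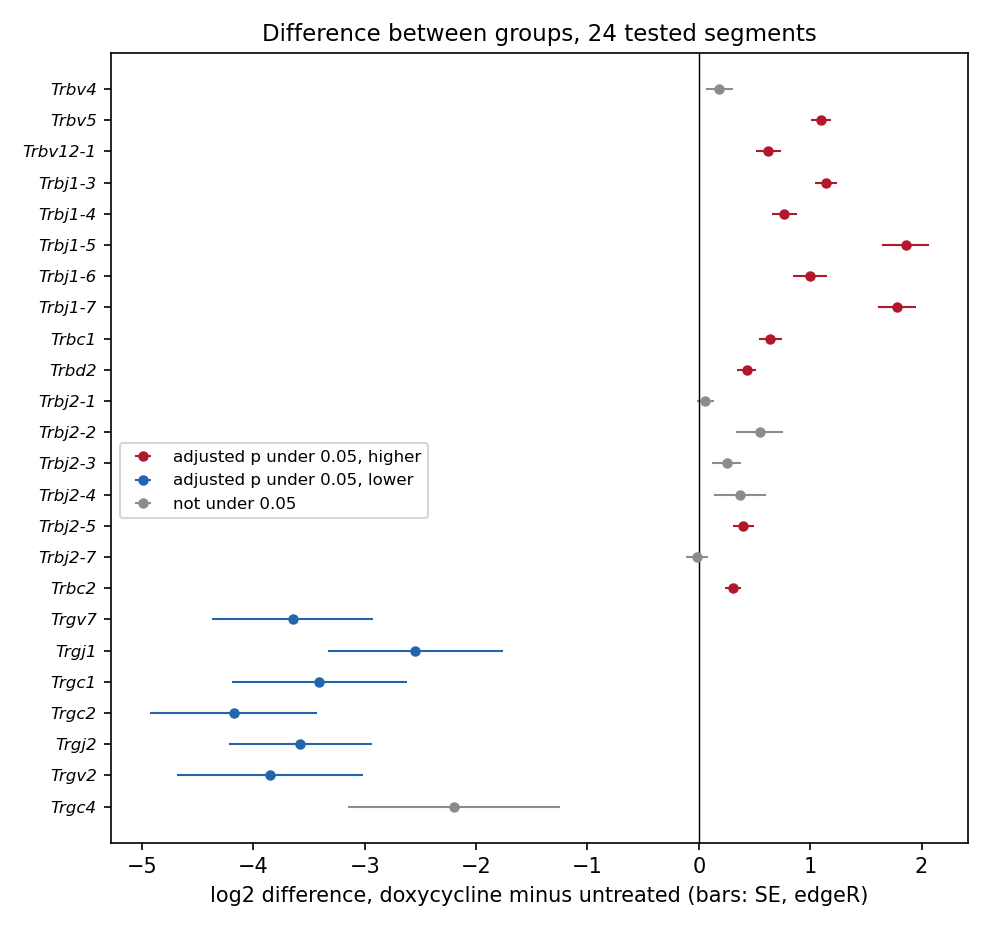
Log2 difference, doxycycline minus untreated (horizontal axis, bars SE from edgeR, 3 mice per group), of the 24 tested segments, coloured by call. The 11 higher calls are all Trb segments, with Trbj1-5 and Trbj1-7 farthest to the right, and the 6 lower calls are all Trg segments.

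Summed per locus, Trb had 2427, 2291 and 2249 CPM in the untreated mice and 3527, 3849 and 3010 CPM in the doxycycline mice. The sum rose 1.49-fold, by 0.58 ± 0.10 (SE, edgeR adjusted p = 0.00155). The Trg sum was 59.6, 43.2 and 20.4 CPM in the untreated mice and 3.94, 0.511 and 6.05 CPM in the doxycycline mice. It fell 11.8-fold, a log2 difference of -3.56 ± 0.88 (SE, edgeR adjusted p = 0.0235). In the table with these sums, 24.8% of genes were called higher and 25.2% lower. The Trg call ended when untreated mouse 1 (edgeR adjusted p = 0.0629), untreated 2 (0.0809) or doxycycline 1 (0.0565) was left out, and with no filter on low counts (0.0533). Without doxycycline mouse 3 the log2 difference was -4.26. Trb C counts exceeded Trg C counts by 36.9, 48.4 and 100 times in the untreated mice and by 758, 6315 and 459 times in the doxycycline mice, the second of these on 15 Trg counts.

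**Figure D5:**
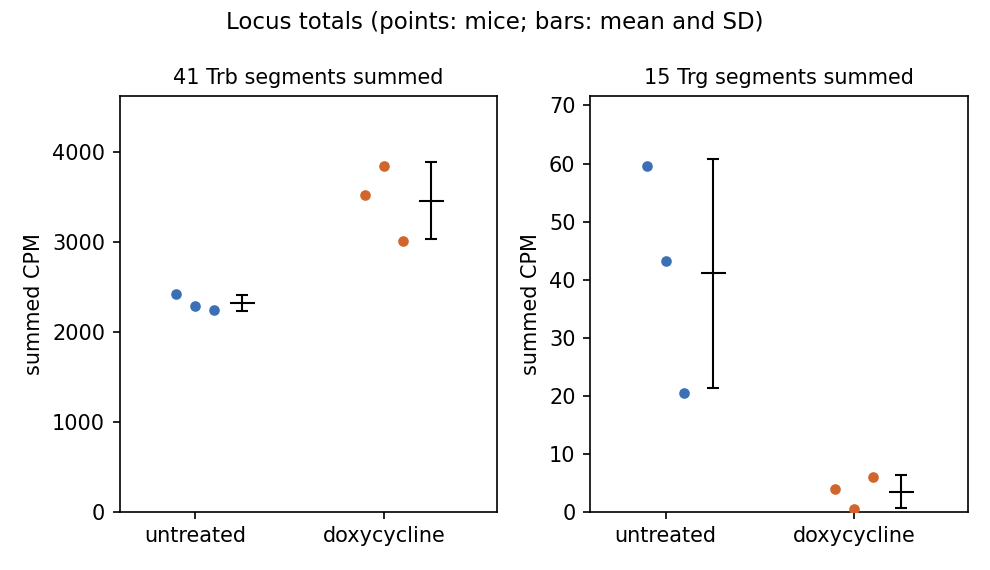
Summed CPM of the 41 Trb segments and the 15 Trg segments, with a point for each mouse and bars for the mean and SD of 3 mice. The Trb sums of the doxycycline mice (3010 to 3849 CPM) lie above those of the untreated mice (2249 to 2427 CPM), and the Trg sums (0.511 to 6.05 CPM) lie below (20.4 to 59.6 CPM).

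By class, the Trb V, D, J and C sums rose by 0.69 ± 0.11, 0.43 ± 0.08, 0.65 ± 0.08 and 0.50 ± 0.09 (SE, edgeR adjusted p = 0.00123, 0.00352, 0.00055 and 0.00248). The Trg V, J and C sums fell, with log2 differences of -3.67 ± 0.85, -2.91 ± 0.76 and -3.59 ± 0.84 (SE, edgeR adjusted p = 0.0174, 0.0186 and 0.019). In the table with class sums, 24.8% of genes were called higher and 25.3% lower. The V call ended without untreated mouse 2 or doxycycline mouse 1 (edgeR adjusted p = 0.0633 and 0.054). The J call ended when untreated mouse 1, untreated 2 or doxycycline 1 was left out (0.0527, 0.0614 and 0.06), and the C call without untreated mouse 1 or untreated mouse 2 (0.0514 and 0.0698). Without doxycycline mouse 3 the V, J and C differences were -4.52, -3.72 and -4.22, and without doxycycline mouse 2 that of J was -2.31.

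Genes that work with these loci were called in both directions. Of 32 listed genes for receptor partners, recombination and upstream signals, 31 were tested, of which 11 were called higher, 7 lower and 13 neither, with a median log2 difference of 0.07. These are 35.5% higher and 22.6% lower, beside 24.8% and 25.2% of all genes tested. Trac, the constant segment of the alpha chain that pairs with beta, had 163, 120.4 and 126.1 CPM in the untreated mice and 568, 557 and 556 CPM in the doxycycline mice, a rise of 2.04 ± 0.11 (SE, edgeR adjusted p = 2.1e-05). Ptcra, the pre-T-cell receptor alpha chain that pairs with beta before Trac is made, had 115.3, 115.4 and 145.3 CPM against 17.8, 48.6 and 16.7 CPM. It fell by 2.17 ± 0.48 (SE, edgeR adjusted p = 0.0148), and this call was lost without untreated mouse 2 (edgeR adjusted p = 0.0532). Without doxycycline mouse 2 the difference was -2.85. Of the signalling chains of the receptor complex, Cd3g fell by 0.45 ± 0.07 (SE, edgeR adjusted p = 0.00094), and Cd247 rose by 0.50 ± 0.08 (0.00137). Neither Cd3d, at -0.07 ± 0.06, nor Cd3e, at 0.07 ± 0.08, passed (edgeR adjusted p = 0.381 and 0.448), these and Cd247 being named after their values were seen. Trdc, the constant segment of the delta chain that pairs with gamma, had 0 counts in all mice.

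Of the genes upstream of the gamma locus, Il7r, the interleukin-7 receptor alpha chain, had 194, 183.5 and 92.4 CPM in the untreated mice and 21.0, 12.5 and 26.5 CPM in the doxycycline mice. Untreated mouse 3 was the lowest of its group and doxycycline mouse 2 the lowest of all. The same held for the 7 tested Trg segments, which can lie on the same transcripts. It also held for Id2, another related gene, and for Gzma, both named after their values were seen. Gzma is from the list of NK-cell genes, of which no other exceeded 0.402 CPM in any mouse. How many of all genes tested show this order was not counted, and what it means was not tested. Il7r fell by 2.97 ± 0.42 (SE, edgeR adjusted p = 0.00348). Of the STAT5 factors, Stat5b rose by 0.63 ± 0.07 (SE, edgeR adjusted p = 0.00031), and Stat5a had a log2 difference of 0.07 ± 0.08 (edgeR adjusted p = 0.472). Dntt, the polymerase that adds bases at V(D)J joins, fell by 1.59 ± 0.16 (SE, edgeR adjusted p = 3e-04). Runx1, a transcription factor of early T cells, fell by 0.70 ± 0.06, while Tcf7, encoding TCF1, rose by 0.44 ± 0.06, and Id3, an inhibitor of E proteins, rose by 1.39 ± 0.17 (SE, edgeR adjusted p = 0.00012, 0.00081 and 0.00078).

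Markers of cell types that the sort could hold are given beside these results, and their part in them was not tested. Their counts of calls stand beside 24.8% of all genes tested called higher and 25.2% lower. Whether any list differs from other genes was not tested. Of 10 T-cell markers, all tested, 5 were called higher and 2 lower. Their summed level was 5310 to 5390 CPM in the untreated mice and 5982 to 6254 CPM in the doxycycline mice. Of 6 genes of mature alpha-beta T cells, all tested, 4 were called higher and 2 lower. Their sums were 759 to 839 and 1485 to 1951 CPM. Of 24 Trb V segments, 15 had 0 counts in every mouse, 6 had between 1 and 71 counts over all mice, and 3 were tested. What these counts mean for other T cells in the sort was not tested. Of 7 genes of gamma-delta T cells, 4 were tested, with 1 called higher and 1 lower. Trdc, Trdv4 and Blk were at 0 in all mice, and the sums were 59.4 to 85.5 and 176 to 314 CPM. Myeloid genes (8 listed, 7 tested, 2 higher and 3 lower) summed to 21.9 to 40.5 and 57.4 to 79.0 CPM. Erythroid genes (6 listed, all tested, 2 higher and 0 lower) summed to 6.14 to 49.0 and 68.5 to 86.1 CPM. NK-cell genes (6 listed, 2 tested, 0 higher and 1 lower) summed to 811 to 1412 and 326 to 927 CPM. Nearly all of this sum was Gzma, with Ncr1 at no more than 0.0301 CPM. B-cell genes (6 listed, 3 tested, 0 called) summed to 207 to 355 and 251 to 296 CPM. Nearly all of this sum was Ighm, with Pax5 at 0 in all mice.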

How the data were processed

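RNA-seq gene counts were analysed for 12 libraries, 2 runs each of 6 mice. The authors deposited raw counts per Entrez gene with a gene length, and all 12 library tables equalled the series table. CASAVA 1.8.1, featureCounts and the mm10 build are named in the submitters' processing notes. The sources used here name no aligner, annotation, strand setting or rule for reads matching several genes, and overlapping or near-identical segments may share or lose reads. Symbols came from RefSeq (GRCm38.p6), which matched 25275 of 27179 identifiers.

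Counts of both runs were summed per mouse. The whole table was fitted with edgeR 4.0.16 in R 4.3.3 (filterByExpr, TMM factors, robust quasi-likelihood F test), with Benjamini-Hochberg adjustment over all genes tested and a threshold of 0.05. SE is the absolute log2 difference divided by the square root of F. Locus and class sums replaced their segments in the same fit. CPM uses TMM-scaled library sizes, and RPKM divides CPM by the deposited length in kilobases. Shares were compared by exact permutation tests over mice, and intervals are Wilson intervals at 95%. P-values measure the spread between mice that carry the same leukemia. The script was tested on simulated counts.

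Members with a mean of at least 1 CPM in either group were named with values, and Trgj1, Trbv31 and other members below it are named for completeness or after their values were seen. Related genes were named where they had the 6 smallest adjusted p-values of their list, plus 7 fixed names. The members, gene lists and tests were chosen with earlier results of these data known. Alternatives were other size factors, other filters, DESeq2 1.42.0, limma-voom (limma 3.58.1, also with quality weights), edgeR without robust dispersions, 1 run at a time, a replicate block, and each mouse left out. A fit without the mice of number 3, those with most Trbv31 counts, was chosen after seeing the data. Sequences were aligned with Biopython 1.88.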

Additional observations from a re-analysis of the deposited data

How the results depend on the processing

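The 11 higher calls were kept under all alternatives, each of which called 11 or 12 segments, and 5 to 7 segments were called lower. No called result changed direction. The Trb locus and class sums stayed under the threshold throughout. The Trg sums passed narrowly: with no filter on low counts the locus sum had a log2 difference of -3.57 (edgeR adjusted p = 0.0533). The sources used here do not state that replicate numbers pair the mice. Deviations of same-numbered mice had correlations of 0.16, -0.01 and -0.10 over 13134 genes, and those of different-numbered mice -0.19 to 0.17. So few mice cannot show that no pairing exists. With the replicate block the log2 differences were -3.74 (adjusted p = 0.062) for the Trg locus, -3.77 (0.0612) for V, -3.73 (0.0556) for C and -3.02 (0.0479) for J, and Trgv2 was at -3.93 (0.0562). Leaving out 1 mouse gave -4.26 to -3.01 for the Trg locus, -4.52 to -3.13 for V, -3.72 to -2.31 for J and -4.22 to -3.05 for C, lowest without doxycycline mouse 3 and highest without doxycycline mouse 2. Of 76 recomputed Trg sums 14 lost their call, and of 95 recomputed Trb sums 0 did. The Trg counts are small, down to 23 in doxycycline mouse 2, the deepest library. The cause of the lost calls was not tested.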

Other observations

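Doxycycline mouse 2 stood apart in several genes related to these loci, chosen after their values were seen. Rag1 and Rag2, which encode the recombinase that cuts the segments, were at 658 and 20.4 CPM there. Doxycycline mouse 1 had 323 and 7.97 CPM, and doxycycline mouse 3 had 226 and 4.76 CPM. The untreated mice had 899 to 913 CPM of Rag1 and 17.6 to 24.7 CPM of Rag2. Over all mice the log2 differences were -1.17 ± 0.41 for Rag1 and -0.91 ± 0.56 for Rag2 (SE, edgeR adjusted p = 0.0632 and 0.233), and without doxycycline mouse 2 they were -1.71 and -1.70 (adjusted p = 0.00027 and 0.00237). The same mouse had the fewest Trg counts (23) and the highest Trb sum (3849 CPM).

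Sox13, a transcription factor of gamma-delta T cells also chosen after its values were seen, fell from 22.1 ± 4.23 to 8.88 ± 2.57 CPM (SD, n = 3 each), by 1.32 ± 0.23 on the log2 scale (SE, edgeR adjusted p = 0.00297).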
